A study of Mus musculus with 3 samples.

Results

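The mouse genome's collagen family was described here in the midbrain of newborn mice. Its members were taken as every gene whose symbol has the form Col, a type number, the letter a and a chain number, which gave 44 of the 49585 genes listed. They were grouped by type number as 11 fibrillar genes (types 1, 2, 3, 5, 11, 24 and 27), 8 basement membrane genes (types 4, 15 and 18) and 25 other genes. All 44 passed the filter on low counts and were tested, so no member was lost to it.

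Total RNA was sequenced from midbrain that had been frozen, taken on postnatal day 3 from the strain C57BL/6. Of the 3 libraries 1 was wild type (WT) and 2 had the genotype listed as FGR, a term the labels do not expand. No treatment is named for either group, and the comparison the design implies is FGR against WT. Total counts were 46240262 to 58444481 per library. The labels do not name the animal or litter behind each library, and the p-values cover only the spread between these samples. With 1 WT library, genotype and anything else particular to that library cannot be told apart. FGR replicate 2 had 1730 to 2944 counts of each of 4 Y-linked genes and 78 of Xist, while WT and FGR replicate 1 had at most 3 counts of each Y-linked gene and 29129 and 34285 of Xist. By these counts the FGR libraries did not come from the same single mouse, and the spread between them includes that difference. Midbrain genes such as En2 were present in all 3 libraries. The 8 listed genes of hypothalamus and ventral forebrain summed to 51.9 CPM (counts scaled to library size) in WT. In FGR replicates 1 and 2 their sums were 3.62 and 3.85 CPM. All 8 fell, where 2.59% of all genes tested were called lower. This list was chosen with earlier results of these data known, so the count of 8 is no independent result.

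Collagens are secreted or membrane proteins built of 3 chains wound into a helix of glycine repeats. Fibrillar types form the cables of connective tissue, type IV forms the sheet of basement membranes, and the remaining types decorate fibrils, form microfibrils or span the cell membrane. In the brain the fibrillar types lie mainly in the meninges and around larger vessels, and type IV surrounds every capillary, while a few collagens are made by neurons.

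Below, each trio of values gives WT, FGR replicate 1 and FGR replicate 2 in that order.

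Promoters are shown for chains that carry the results: Col3a1 and Col1a2 for the fibrillar fall, Col13a1 for the largest fall, and Col25a1 for an abundant member that was not called. Each line is the 250 bases before the gene's start in RefSeq (GRCm38.p6), read 5′ to 3′ on the gene's strand. Capitals mark matches on either strand to one of 5 short words, none of which contains another. The TATA box was searched as the letters TATAAA. The CCAAT box was searched by the letters of its name. The GC box was searched as the letters GGGCGG. The word bound by AP-1 was searched as the letters TGANTCA. The word bound by TEAD factors was searched as the letters GGAATG.
Col3a1, chr1:45311288-45311537, plus strand: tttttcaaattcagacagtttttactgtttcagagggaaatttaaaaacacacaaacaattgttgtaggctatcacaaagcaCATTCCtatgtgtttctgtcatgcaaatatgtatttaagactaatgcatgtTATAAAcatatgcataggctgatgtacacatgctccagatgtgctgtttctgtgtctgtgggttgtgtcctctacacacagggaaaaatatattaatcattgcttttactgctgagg
Col1a2, chr6:4505368-4505617, plus strand: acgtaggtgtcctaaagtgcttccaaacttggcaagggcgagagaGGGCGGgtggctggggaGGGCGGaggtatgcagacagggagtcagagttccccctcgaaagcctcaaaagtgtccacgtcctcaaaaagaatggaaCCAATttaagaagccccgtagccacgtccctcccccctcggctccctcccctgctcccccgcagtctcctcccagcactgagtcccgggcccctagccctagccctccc
Col13a1, chr10:61979109-61979358, minus strand: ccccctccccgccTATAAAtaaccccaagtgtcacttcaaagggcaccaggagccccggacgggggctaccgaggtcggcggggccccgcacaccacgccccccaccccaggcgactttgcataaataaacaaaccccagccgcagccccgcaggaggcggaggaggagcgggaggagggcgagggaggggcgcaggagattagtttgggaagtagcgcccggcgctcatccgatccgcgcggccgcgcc
Col25a1, chr3:130180595-130180844, plus strand: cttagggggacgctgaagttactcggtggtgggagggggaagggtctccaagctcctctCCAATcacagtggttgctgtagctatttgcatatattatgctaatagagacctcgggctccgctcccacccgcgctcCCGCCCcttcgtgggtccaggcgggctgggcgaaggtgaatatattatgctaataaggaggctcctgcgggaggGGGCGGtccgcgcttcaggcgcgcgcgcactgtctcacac

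Windows were found for 35 of the 44 members; Col12a1, Col14a1, Col1a1, Col22a1, Col26a1, Col2a1, Col4a3, Col5a2 and Col9a3 had none. The GC box was in the windows of 21 of the 35 (60.0%, against 35.4% of 27025 genes with a window), the CCAAT box in 13 (37.1% against 37.5%) and the TATA box in 5 (14.3% against 14.3%). The TEAD word was in 4 (11.4% against 14.4%) and the AP-1 word in 1, Col6a1 (2.86% against 7.82%). Of the 14 members with a window that fell in FGR, as described next, 8 held the GC box and 7 the CCAAT box. The Col3a1 window above has a TATA box, a TEAD word and no GC box, and the Col1a2 window has a pair of GC boxes, a CCAAT box and no TATA box; both genes fell. These are matches of letters, not shown to be sites.

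Most collagen transcripts were lower in both FGR libraries than in WT. In bulk tissue, fewer cells of a type and less RNA per cell cannot be told apart. Of the 44 members, 19 were called lower and 0 higher (edgeR quasi-likelihood test, adjusted p under 0.05), where 2.59% of all 25561 genes tested were called lower, 1.66% higher and 4.25% in either direction. Only Col10a1 had an unadjusted p under 0.05 in the higher direction, and DESeq2 called 0 higher. The members' median log2 fold change was -0.42, and that of all genes tested was 0.01. By CPM scaled with trimmed means (TMM), 40 members lay below WT in both FGR libraries, or 90.9%, against 38.2% of all genes tested. The exceptions were Col2a1, Col5a3, Col25a1 and Col10a1, named after their values were seen. At least a 1.5-fold deficit, which needs no test, was seen for 18 members in the FGR mean, where 8.27% of all genes tested reached it. FGR replicate 1 alone gave 20 such members (11.1% of all genes) and FGR replicate 2 alone 12 (8.95% of all genes).

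The calls depended on the tool. DESeq2, which gave 32 of the 44 an adjusted p, called 6 lower (1.56% of all genes given one, with 0.869% higher): Col4a1, Col5a2, Col6a2, Col8a2, Col11a1 and Col16a1. edgeR's robust fit called 11 (2.83% of all genes lower, 1.99% higher). edgeR's fit without the robust option, on genes at a mean of at least 1 CPM, called 5 (1.08% lower, 0.536% higher): Col5a2, Col8a2, Col11a1, Col13a1 and Col26a1. That filter thus ended the call of every other gene described below as falling within the family. All the calls in these 3 settings were among the 19. Col5a2, Col8a2, Col11a1 and Col13a1 were called in every setting that gave them an adjusted p; DESeq2 gave Col13a1 none. In the other settings the members called lower numbered 19 with DESeq2 size factors (background 3.05% lower, 1.68% higher), 22 with library totals (4.02%, 1.3%) and 25 without a filter (3.8%, 1.94%). They numbered 18 with limma-voom (2.86%, 1.38%), 19 without Rn7s1 and Rn7s2 (2.91%, 1.53%) and 19 of 42 without X- and Y-linked genes (3.24%, 1.91%), of which 18 were among the 19.

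**Figure D1:**
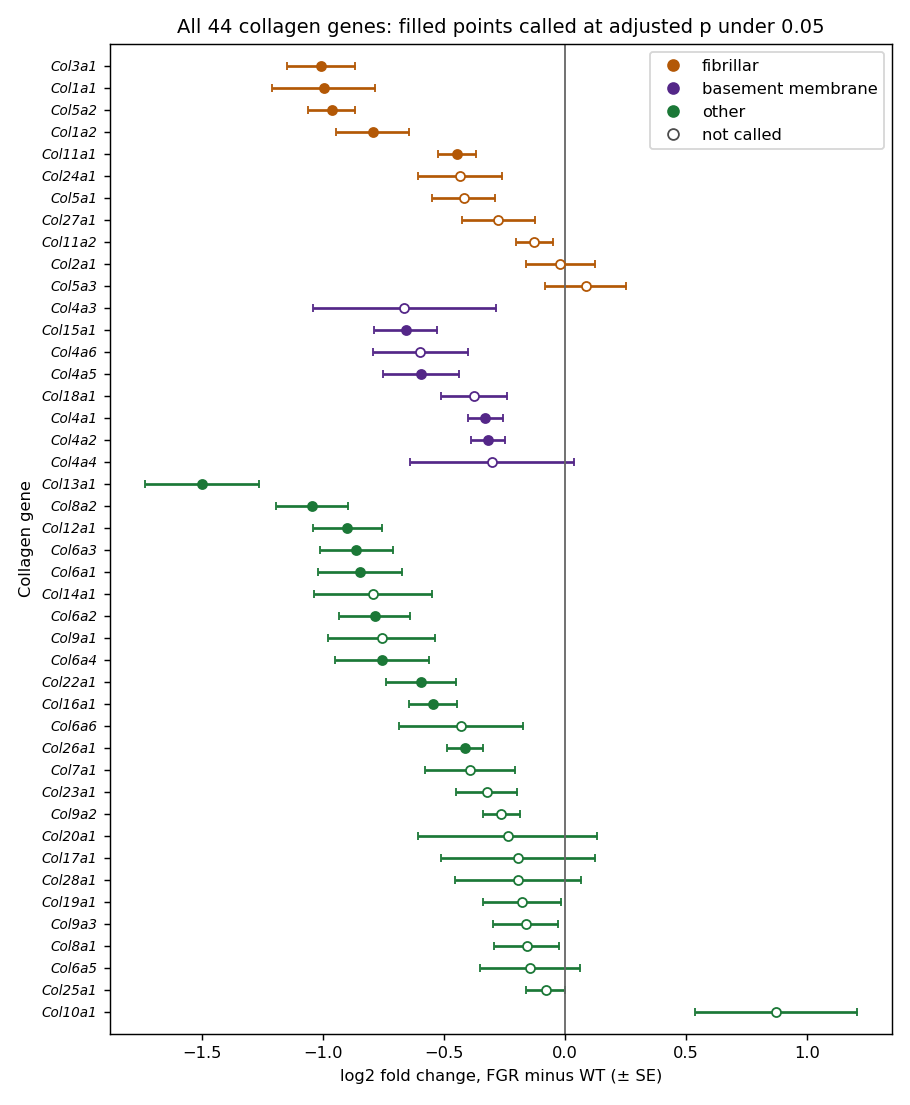
Log2 fold change of FGR against WT for the 44 collagen genes, ordered within class; points are edgeR estimates, bars are ± SE, and filled points were called. Of the 44 estimates, 42 lie below 0; the 19 filled points are all among them, and Col10a1 lies farthest to the right.

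Summed over all 44 members, collagens stood at 1460 CPM in WT, 933.5 CPM in FGR replicate 1 and 1097 CPM in FGR replicate 2. The sum in FGR replicate 1 was thus 0.639 of that in WT and the sum in FGR replicate 2 was 0.751 of it. Of the members, 32 ran in the order WT, FGR replicate 2, FGR replicate 1 from high to low (72.7%, against 19.5% of all genes tested). FGR replicate 1 was below FGR replicate 2 for 35 (79.5%, against 50.8%). The fibrillar share of the collagen sum was 39.0% (WT), 32.0% (FGR replicate 1) and 35.7% (FGR replicate 2), and the basement membrane share 25.7%, 29.2% and 27.8%.

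The fibrillar sum was the class sum farthest below WT in both FGR libraries, with 569.8 CPM (WT), 298.8 CPM (FGR replicate 1) and 391.8 CPM (FGR replicate 2). Of the 11 genes 5 fell (2.59% of all genes tested), 0 rose (1.66% of all genes tested) and the median log2 fold change was -0.43. Col3a1, whose product forms the fine reticular fibrils of soft tissue (ENSMUSG00000026043.18), had the highest collagen count pooled over the 3 libraries. In FGR replicate 1, Col4a1, Col4a2 and Col25a1 stood above it (113.3, 102.4 and 98.1 CPM). Col3a1 was at 210.4 CPM in WT, 84.9 CPM in FGR replicate 1 and 124.6 CPM in FGR replicate 2. Both FGR libraries lay below WT, and FGR replicate 1 lay below FGR replicate 2. Per length it was at 21.4, 8.65 and 12.7 CPM per kb, and the next fibrillar genes by that scale were Col1a2 (9.66, 4.41 and 6.75 CPM per kb) and Col11a2 (6.42, 5.82 and 5.93 CPM per kb). Its log2 fold change was -1.01 ± 0.14 (SE; edgeR adjusted p = 0.00114).

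The chains of type I collagen, the main fibre of connective tissue, fell together. Col1a1 (ENSMUSG00000001506.10) stood at 25.7 CPM (WT), 9.38 CPM (FGR replicate 1) and 16.4 CPM (FGR replicate 2) and was 1.997-fold lower in the fit (edgeR adjusted p = 0.0168). Col1a2 (ENSMUSG00000029661.16) stood at 120.0 CPM (WT), 54.8 CPM (FGR replicate 1) and 83.8 CPM (FGR replicate 2), a log2 fold change of -0.79 ± 0.15 (edgeR adjusted p = 0.00855). For both, FGR replicate 1 was lowest and WT highest. DESeq2 did not call Col3a1, Col1a1 or Col1a2 (adjusted p = 0.354, 0.668 and 0.641), nor did the robust fit (adjusted p = 0.559, 0.637 and 0.653).

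Col5a2, a chain of the type V collagen that starts type I fibrils and the genomic neighbour of Col3a1 in RefSeq, had the smallest p-value of the family. It was at 54.9 CPM (WT), 25.8 CPM (FGR replicate 1) and 30.5 CPM (FGR replicate 2), so the gap to WT exceeded the gap between the FGR libraries. The log2 fold change was -0.96 ± 0.10 (edgeR adjusted p = 7.43e-05). Its partner chain Col5a1 was at 33.3 CPM (WT), 21.7 CPM (FGR replicate 1) and 28.3 CPM (FGR replicate 2) (log2 fold change -0.42 ± 0.13, edgeR adjusted p = 0.0909), and the minor chain Col5a3 at 5.68, 5.57 and 6.52 CPM. Per length, the level ratio of Col5a1 to Col5a2 was 0.687 (WT), 0.947 (FGR replicate 1) and 1.05 (FGR replicate 2).

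Type XI chains, which nucleate fibrils in cartilage and are also made in other tissues, parted in the test. Col11a1 was at 53.4 CPM (WT), 37.5 CPM (FGR replicate 1) and 41.0 CPM (FGR replicate 2), and fell (log2 fold change -0.45 ± 0.08, edgeR adjusted p = 0.00531). Col11a2 was at 43.8, 39.8 and 40.5 CPM (log2 fold change -0.13 ± 0.08, adjusted p = 0.416); the difference between the chains was not tested. The cartilage collagen Col2a1 was at 9.34 CPM (WT), 8.98 CPM (FGR replicate 1) and 9.47 CPM (FGR replicate 2), so WT lay between the FGR libraries. Col24a1 and Col27a1, minor fibrillar genes, had log2 fold changes of -0.43 ± 0.17 and -0.28 ± 0.15 and were not called.

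**Figure D2:**
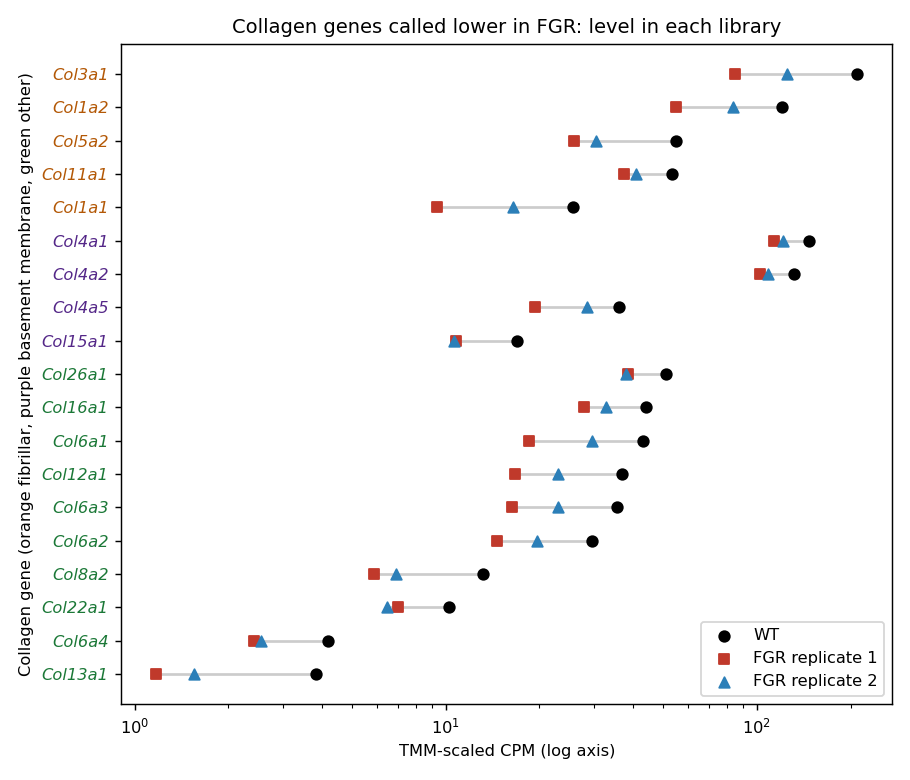
TMM-scaled CPM (log axis) in each library for the 19 collagen genes called lower in FGR; each symbol is 1 library and the grey line spans the 3. WT is highest for every gene; FGR replicate 1 is lowest for all but Col15a1, Col22a1 and Col26a1.

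Of the 8 basement membrane genes, 8 lay below WT in each FGR library (38.2% of all genes tested) and 4 fell (2.59% of all genes tested). The sum of these 8 was 374.5 CPM (WT), 272.3 CPM (FGR replicate 1) and 305.1 CPM (FGR replicate 2), and their median log2 fold change was -0.49. Col4a1 and Col4a2 encode the chains found in nearly every basement membrane. Col4a1 (ENSMUSG00000031502.11) was at 147.4 CPM (WT), 113.3 CPM (FGR replicate 1) and 121.3 CPM (FGR replicate 2) (log2 fold change -0.33 ± 0.07, edgeR adjusted p = 0.0180). Col4a2 (ENSMUSG00000031503.13) was at 131.8, 102.4 and 108.9 CPM in the same order (log2 fold change -0.32 ± 0.07, edgeR adjusted p = 0.0184). The FGR libraries lay closer to each other than to WT for both genes. DESeq2 did not call Col4a2 (adjusted p = 0.0541).

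Col4a1 and Col4a2 lie head to head, and their per-length levels were nearly equal in each library, with a Col4a2 to Col4a1 ratio of 1.01 in WT and 1.02 and 1.01 in FGR. In RefSeq (GRCm38.p6) their transcripts start 22 bases into each other, at chr8:11312805-11312826. That stretch is shown because both genes share it. Matches in it were not marked with capitals, and it holds the GC box letters GGGCGG.
Col4a2 start to Col4a1 start, plus strand: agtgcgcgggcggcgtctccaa

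The X-linked pair Col4a5 and Col4a6, whose products join in the basement membranes of smooth muscle and epithelia, had nearly equal estimates. Col4a5 was at 35.9 CPM (WT), 19.3 CPM (FGR replicate 1) and 28.4 CPM (FGR replicate 2), a log2 fold change of -0.60 ± 0.16 just under the threshold (edgeR adjusted p = 0.0493). Col4a6 was at 14.1, 7.28 and 11.4 CPM, and its estimate of -0.60 ± 0.20 was not called (adjusted p = 0.109). Their ratio per length stayed between 0.318 and 0.337. The Col4a5 call was lost in DESeq2 (adjusted p = 0.757) and in the robust fit (adjusted p = 0.620). Col4a3 and Col4a4, chains of the kidney filter, had 31 to 60 counts per library and were not called (log2 fold change -0.66 ± 0.38 and -0.30 ± 0.34).

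Types XV and XVIII carry heparan or chondroitin sulphate and sit at the outer face of basement membranes. Col15a1 was at 16.9 CPM (WT), 10.8 CPM (FGR replicate 1) and 10.6 CPM (FGR replicate 2), with the FGR libraries almost alike, and fell (log2 fold change -0.66 ± 0.13, edgeR adjusted p = 0.0111; DESeq2 adjusted p = 0.0551). Col18a1, the source of endostatin, was at 26.3, 17.9 and 22.8 CPM and was not called (adjusted p = 0.145).

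**Figure D3:**
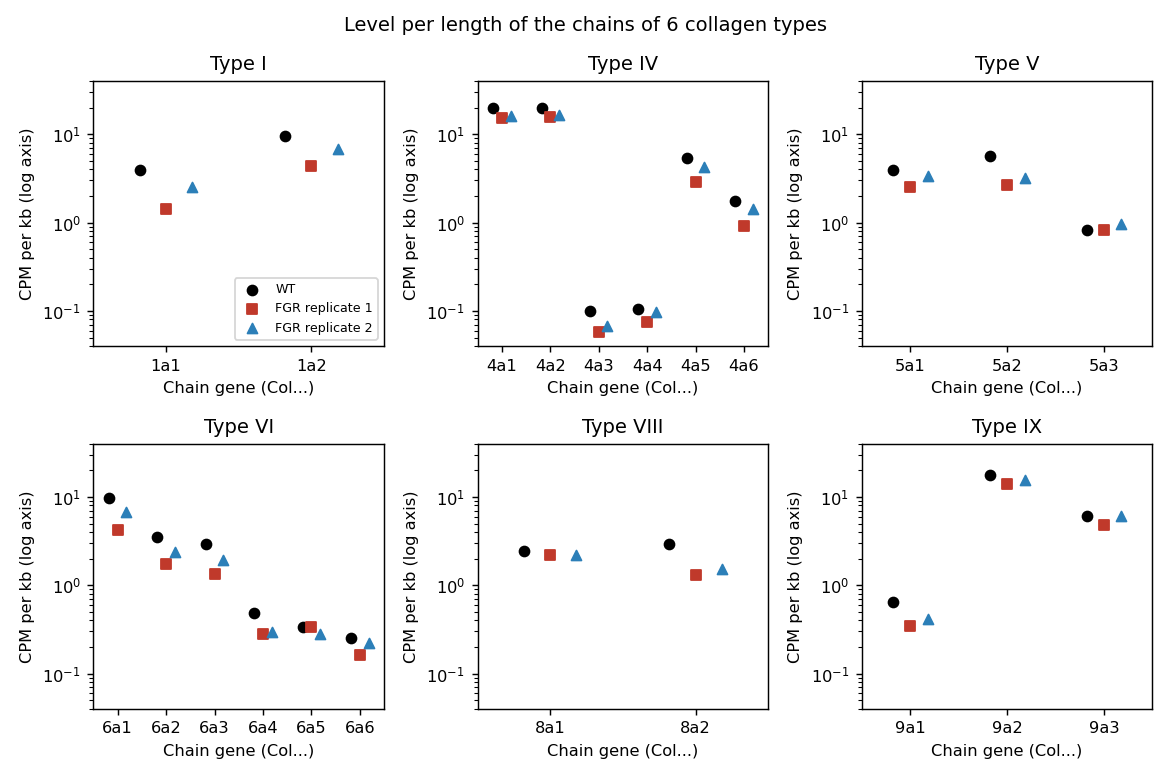
Level per length (CPM per kb of the deposited gene length, log axis) of the chains of collagen types I, IV, V, VI, VIII and IX; each symbol is 1 library. Col4a1 and Col4a2 sit together at 15.2 to 19.9, Col4a3 and Col4a4 near 0.1, and Col8a2 falls below Col8a1 in the FGR libraries only.

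Among the other collagens 10 of 25 fell (2.59% of all genes tested) and 0 rose (1.66% of all genes tested), with a median log2 fold change of -0.41. The main chains of type VI, which form beaded microfibrils between cells and matrix, fell together. Col6a1 was at 43.1 CPM (WT), 18.5 CPM (FGR replicate 1) and 29.5 CPM (FGR replicate 2) (log2 fold change -0.85 ± 0.17, edgeR adjusted p = 0.0133). Col6a2, its genomic neighbour, was at 29.4, 14.6 and 19.6 CPM (log2 fold change -0.79 ± 0.15, edgeR adjusted p = 0.00811). Col6a3 was at 35.5, 16.3 and 22.9 CPM (log2 fold change -0.86 ± 0.15, edgeR adjusted p = 0.00513). All 3 genes had the order WT, FGR replicate 2, FGR replicate 1. Of the later-found chain genes, Col6a4 fell from 4.18 CPM to 2.41 and 2.54 CPM (edgeR adjusted p = 0.0431), while Col6a5 (3.21, 3.16 and 2.65 CPM) and Col6a6 (2.34, 1.48 and 2.01 CPM) were not called. DESeq2 called neither Col6a1 nor Col6a3 (adjusted p = 0.656 and 0.377). The robust fit ended both of those calls (adjusted p = 0.644 and 0.256) and that of Col6a2 (adjusted p = 0.0562), and limma-voom that of Col6a4 (adjusted p = 0.0534).

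Of the 9 collagens that bind to the surface of fibrils, 9 lay below WT in each FGR library (38.2% of all genes tested). Of these 9, 3 fell (2.59% of all genes tested). Col12a1, which coats type I fibrils, was at 37.0 CPM (WT), 16.7 CPM (FGR replicate 1) and 22.97 CPM (FGR replicate 2) (log2 fold change -0.90 ± 0.14, edgeR adjusted p = 0.00282). DESeq2 and the robust fit did not call it (adjusted p = 0.265 and 0.145). Col16a1 fell from 44.2 CPM to 27.9 and 32.7 CPM (edgeR adjusted p = 0.00678), and Col22a1, a collagen of tissue junctions, from 10.2 CPM to 7.02 and 6.48 CPM (edgeR adjusted p = 0.0349; DESeq2 did not call it). Col14a1, a relative of Col12a1, was at 2.47, 1.47 and 1.38 CPM (adjusted p = 0.0846).

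Type IX, best known from the surface of cartilage fibrils, was uneven between its chains. Per length, Col9a2 was the highest of the other collagens, at 17.6, 13.9 and 15.5 CPM per kb. Col9a3 was at 6.14, 4.86 and 6.12 CPM per kb, and Col9a1 at 0.641, 0.347 and 0.414 CPM per kb. None was called (adjusted p = 0.0698 for Col9a2, 0.582 for Col9a3 and 0.0710 for Col9a1). Col9a2 and Col9a1 were called lower when libraries were scaled by their totals (edgeR adjusted p = 0.0291 and 0.0462) or without a filter on low counts (edgeR adjusted p = 0.0129 and 0.0113). Col19a1, the neighbour of Col9a1, was at 7.21, 5.79 and 6.98 CPM and was not called (adjusted p = 0.628), nor was Col20a1 (adjusted p = 0.799).

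The network-forming type VIII, known from the cornea and vessel walls, also parted in the test. Col8a2 was at 13.1 CPM (WT), 5.86 CPM (FGR replicate 1) and 6.89 CPM (FGR replicate 2), a log2 fold change of -1.05 ± 0.15 (edgeR adjusted p = 0.00136). Col8a1 was at 12.6, 11.3 and 11.2 CPM (log2 fold change -0.16 ± 0.13, adjusted p = 0.596). The per-length ratio of Col8a1 to Col8a2 was 0.842 (WT), 1.70 (FGR replicate 1) and 1.43 (FGR replicate 2); this difference between chains was not tested. Col10a1, of hypertrophic cartilage, was at 0.725, 1.24 and 1.42 CPM, above WT in both FGR libraries, with a log2 fold change of 0.87 ± 0.33 (adjusted p = 0.172) from 39 to 72 counts per library.

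The membrane-spanning collagens held the largest fall in the family and 1 of its abundant members that was not called. Col13a1, a transmembrane collagen of cell junctions with a role at the neuromuscular synapse (ENSMUSG00000058806.14), was at 3.83 CPM (WT), 1.17 CPM (FGR replicate 1) and 1.55 CPM (FGR replicate 2), from 206, 68 and 71 counts. Its log2 fold change was -1.50 ± 0.23 (edgeR adjusted p = 0.00262). Col25a1, a neuronal collagen first found in amyloid plaques (ENSMUSG00000058897.17), was at 96.6 CPM (WT), 98.1 CPM (FGR replicate 1) and 84.7 CPM (FGR replicate 2). WT lay between the FGR libraries, and the log2 fold change was -0.08 ± 0.08 (adjusted p = 0.665). Col25a1 made up 6.62% of the collagen sum in WT and 10.5% and 7.72% in FGR. Col23a1 (28.03, 20.1 and 24.8 CPM) and Col17a1 (1.19, 0.948 and 1.14 CPM) were not called.

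Col26a1, a secreted collagen with an EMI domain, fell from 50.9 CPM to 38.5 and 37.9 CPM (log2 fold change -0.41 ± 0.07, edgeR adjusted p = 0.00654; DESeq2 adjusted p = 0.0533). The FGR libraries differed by less than 1 CPM. Col7a1, of the anchoring fibrils of skin, and Col28a1, known from peripheral nerve, were not called (adjusted p = 0.284 and 0.757).

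Genes that make, process or bind collagen were described next. Over 5 lists with 72 genes, 68 were tested, 10 fell (14.7%, against 2.59% of all genes tested) and 0 rose. The highest count of calls was in proteins that sit on fibrils. DESeq2 gave 50 of them an adjusted p and called 4 lower (Serpinh1, Sparc, Fn1 and Ogn), against 1.56% of all genes given one. The filter at a mean of 1 CPM kept 59 and left 4 called lower (Serpinh1, Loxl1, Fn1 and Tnxb), against 1.08% of all genes. In each setting run 0 were called higher.

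Of 21 genes for chain folding and hydroxylation, Serpinh1 was the 1 that fell (4.76%, near the 2.59% of all genes tested). It encodes HSP47, the endoplasmic reticulum chaperone dedicated to procollagen. Its level was 88.3 CPM (WT), 42.2 CPM (FGR replicate 1) and 51.2 CPM (FGR replicate 2), both below WT by more than they differed from each other (log2 fold change -0.92 ± 0.09, edgeR adjusted p = 5.22e-05). The list's most abundant gene by count, P4hb, a subunit of prolyl hydroxylase that also serves other proteins, was at 194.9, 180.3 and 190.0 CPM (adjusted p = 0.675). The list's median log2 fold change was -0.11.

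Of 14 genes of propeptide cleavage and cross-linking 2 fell (14.3%, against 2.59% of all genes tested), with a list median of -0.21. The cross-linking oxidase gene Loxl1 was at 5.70 CPM (WT), 2.47 CPM (FGR replicate 1) and 2.95 CPM (FGR replicate 2) (edgeR adjusted p = 0.00508; DESeq2 adjusted p = 0.107), and the collagen-binding glycoprotein gene Sparc at 227.2, 162.8 and 186.3 CPM (edgeR adjusted p = 0.0235). The fibril-associated list was lower in both FGR libraries for 14 of 14 tested genes, against 38.2% of all genes tested. Of these 14, 5 fell, against 2.59% of all genes tested, and the list median was -0.75. Among the 5 were Fn1 (fibronectin; 49.2, 30.5 and 32.3 CPM, edgeR adjusted p = 5.41e-04), Tnxb (tenascin X; 5.78, 2.16 and 2.76 CPM, edgeR adjusted p = 0.00272), Ogn (14.5, 5.64 and 8.25 CPM, edgeR adjusted p = 0.00459) and Fmod (10.2, 2.38 and 5.45 CPM, edgeR adjusted p = 0.0143). Ogn and Fmod encode small leucine-rich proteoglycans that bind fibrils. Neither DESeq2 nor the robust fit called Fmod (adjusted p = 0.689 and 0.630), and DESeq2 did not call Tnxb (adjusted p = 0.0505).

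Of 10 tested collagen receptors Itga1 and Ddr2 fell (20%, against 2.59% of all genes tested). Itga1, an integrin chain that binds type IV collagen, was at 10.5 CPM (WT), 6.72 CPM (FGR replicate 1) and 7.31 CPM (FGR replicate 2) (edgeR adjusted p = 0.0366), and Ddr2, a receptor kinase for fibrillar collagen, at 21.2, 9.72 and 15.5 CPM (edgeR adjusted p = 0.0436). DESeq2 called neither (adjusted p = 0.299 and 0.720), and the robust fit did not call Ddr2 (adjusted p = 0.566). The shared integrin chain Itgb1 was at 119.3, 100.3 and 107.7 CPM (adjusted p = 0.136). Of 9 tested genes of collagen breakdown and its inhibitors 0 were called in edgeR, 3 had an unadjusted p under 0.05, and the abundant inhibitor gene Timp2 was at 122.7, 129.3 and 120.8 CPM.

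**Figure D4:**
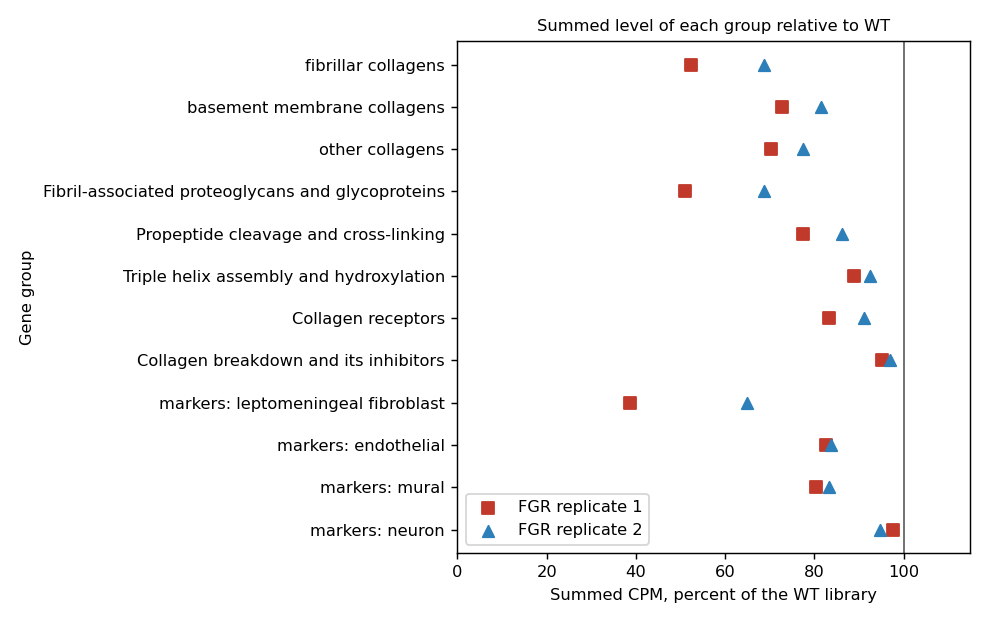
Summed TMM-scaled CPM of the collagen classes, collagen-related lists and 4 cell type marker lists in the FGR libraries, as a percent of its sum in the WT library (line at 100); each symbol is 1 library. Among the groups plotted, which leave out the hypothalamic list and the markers of other tissues, fibrillar collagens, fibril-associated genes and leptomeningeal markers lie farthest to the left, with FGR replicate 1 below FGR replicate 2; neuronal markers lie near 100.

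Markers of some cells that make collagen were also lower in FGR, most of all those of the leptomeninges. The 13 leptomeningeal fibroblast markers, none a collagen, summed to 628.2 CPM (WT), 243.4 CPM (FGR replicate 1) and 407.8 CPM (FGR replicate 2). All 13 were lower in both FGR libraries (38.2% of all genes tested), in the same order as the fibrillar sum (19.5%). Of the 13, 9 fell, where 2.59% of all genes tested were called lower. The most abundant of the 13, Ptgds, a prostaglandin synthase gene of the meninges, was at 308.8, 107.7 and 197.5 CPM. The 10 endothelial markers summed to 230.7, 190.6 and 193.4 CPM (4 fell and 6 were not called, Cldn5 being the most abundant at 57.0, 48.5 and 44.1 CPM). The 10 mural markers summed to 222.5, 178.8 and 185.3 CPM (2 fell and 8 were not called). Of these, Rgs5 had the highest count pooled over the 3 libraries, at 69.7, 52.5 and 47.4 CPM. Above WT in both FGR libraries were the endothelial Slco1c1 (37.8, 42.6 and 43.3 CPM, edgeR adjusted p = 0.219) and the mural Higd1b (0.836, 1.05 and 1.07 CPM, edgeR adjusted p = 0.656). The sum of fibrillar collagens divided by that of leptomeningeal markers was 0.907 in WT and 1.23 and 0.961 in FGR, and basement membrane collagens divided by endothelial markers gave 1.62, 1.43 and 1.58. The part of these cell types in the collagen results was not tested.

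Markers of other tissues were low. Those of cartilage and bone summed to 7.13, 4.95 and 4.92 CPM, and Acan, the most abundant, fell (4.20, 1.90 and 2.47 CPM, edgeR adjusted p = 0.0225). Those of skeletal muscle summed to 11.5, 11.7 and 12.1 CPM (Acta1 highest by count, Myh8 higher in FGR). Those of choroid plexus summed to 10.3, 7.17 and 12.7 CPM (Kcnj13 highest by count pooled over the 3 libraries). In the choroid plexus list, Ttr was at 0.669, 1.26 and 4.24 CPM (edgeR adjusted p = 0.0561), and the other 5 genes lay below WT in both FGR libraries. The Schwann cell list summed to 13.8, 10.7 and 11.5 CPM, and Prx was highest by count. In that list Pmp2 fell and Foxd3 rose, both at low counts (17, 0 and 0 for Pmp2, and 4, 38 and 27 for Foxd3). Neuronal markers summed to 4459, 4350 and 4224 CPM and 0 of 6 were called (Map2 highest by count), with 2 at an unadjusted p under 0.05. The 8 midbrain genes summed to 225.4 CPM (WT), 367.3 CPM (FGR replicate 1) and 332.5 CPM (FGR replicate 2), Lhx9 being the most abundant. Of the 8, 5 rose, where 1.66% of all genes tested were called higher. Foxa2 (5.13, 4.79 and 4.48 CPM) and Th (14.1, 10.2 and 11.1 CPM) lay below WT in both FGR libraries and were not called. The hypothalamic list, given above, had Sim1 as its most abundant gene by count pooled over the 3 libraries. In WT, Pmch was higher (11.5 CPM, against 10.1 CPM for Sim1). The part of these tissue markers in the collagen results was not tested.

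Reads of 13 members may be shared with an overlapping gene, since no source used here names the counting tool or says whether it used strand. In GENCODE M21, exons of these members overlap those of another gene, by at least 100 bases for 5 of them. The longest overlaps are those of Col4a3 (563 bases, with C430014B12Rik on the opposite strand) and Col9a3 (234 bases, with Tcfl5 on the opposite strand).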

How the data were processed

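Per the submitters' processing notes, reads were aligned with HISAT2; no version, genome build or counting program is given in the sources used here. The authors deposited, per library, a raw read count, a length and an RPKM value for each gene. The deposited RPKM could be recomputed from the other columns with a deviation of at most 0.001 percent and was not used further; the deposited length, in bases, served for levels per kb.

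The test was edgeR's two-sided quasi-likelihood test (edgeR 4.0.16 in R 4.3.3) after TMM scaling, on the 25561 genes that passed filterByExpr with a minimum count of 10. P-values were adjusted by Benjamini-Hochberg across these genes and called under 0.05. For each gene only the FGR pair gives spread, leaving 1 residual degree of freedom, and WT is assumed to vary as much. The fit draws each gene's spread toward that of all genes tested. The p-values and SE thus rest on spread borrowed from other genes as well as on the FGR pair. SE was taken as the size of the log2 fold change over the root of its F statistic. CPM are TMM-scaled. Over all genes, 663 were called lower and 424 higher, against 1027 and 332 when libraries were scaled by their totals.

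Alternatives used DESeq2 1.42.0, limma-voom (limma 3.58.1), a robust fit, other scalings and filters, removal of Rn7s1 and Rn7s2, removal of each FGR library and, added after seeing the data, leaving out genes of the X and Y chromosomes. The edgeR script was checked on simulated counts with known changes.

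Named genes were all called members, the 3 highest per length in each class with their partner chains, and from each collagen-related list up to 4 called genes by p and the most abundant; other members are given with values in brief. Members and lists were chosen with earlier results of these data known. Gene names and neighbours were read from the files and RefSeq (GRCm38.p6). A symbol with several identifiers took the one with the highest count. The value of 1 marker gene is not reported here.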

Additional observations from a re-analysis of the deposited data

How the results depend on the processing

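The count of collagen genes called lower was 19, and 5 with genes at a mean of at least 1 CPM, 6 by DESeq2 and 11 in the robust fit. It was 18 to 25 in the other 6 settings, namely size factors, library totals, no filter, limma-voom, removal of Rn7s1 and Rn7s2, and leaving out genes of the X and Y chromosomes. None was called higher in any of these. Of the estimates, 42 of 44 were below 0 in each setting that tested all 44. Without FGR replicate 1 or 2 the number at least 1.5-fold below WT was 12 and 20; these are values with no test, because 1 library a group leaves no residual degrees of freedom.

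Collagen-related genes called lower numbered 10, and 16 with library totals, 20 without a filter, 4 with genes at a mean of at least 1 CPM and 4 by DESeq2. Genes called lower overall numbered 1027, 1362, 201 and 230 in these settings. Genes called higher overall numbered 695 without a filter, 100 at a mean of at least 1 CPM and 128 by DESeq2. Timp2 changed sign with library totals (log2 fold change -0.012). The cause of these shifts was not tested. The 9 alternatives with a p-value gave 250 values for 29 named collagens. Of these values, 211 kept direction and side of the threshold, 34 lost the call, 5 gained it and 0 changed sign. The 250 include collagens not called in the main edgeR test, which kept their side by staying uncalled. The 34 losses all came from the 19 called members, of which 4 kept the call in every setting that gave an adjusted p. Leaving out 1 FGR library, with no test, changed the sign of Col25a1 (0.02 without FGR replicate 2) and of Timp2 (-0.02 without FGR replicate 1), neither of them called. Ratios of chains within a library do not depend on scaling.

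No paired analysis was possible because no label links the 1 WT library to an FGR library. Low members such as Col4a3 and Col10a1, at 31 to 72 counts, had standard errors above 0.3 (log2); how far depth sets them was not tested.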
